A study of Arabidopsis thaliana with 4 samples.

Results

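A set of 116 probe sets, 52 of them assigned to 1 nuclear gene each, gave high signals on the arrays where antenna genes of photosynthesis gave low ones. The set was chosen by its values: on the linear scale, the lower signal of ppi2 replicate 1 and wild type replicate 2 had to reach 400 and be at least 4 times the higher signal of ppi2 replicate 2 and wild type replicate 1. Of 22746 probe sets other than controls, 121 (0.532%) met these conditions, and 5 genes (WRKY53, XTH18, XTH19, EXLA1 and ATPMEPCRB) were left out by name. None of the 121 was assigned to a plastid or mitochondrial gene. The platform annotation gave 1 gene for 52 of the 116 members and several genes for 2, and it did not list the other 62, which are therefore described by their values only and whose genome of origin was not checked.

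The study measured RNA of whole Arabidopsis thaliana plants on 4 single-colour arrays. The ppi2 group held 2 arrays of mutants grown for 20 days, and the wild-type group 2 arrays of plants grown for 10 days, all on agar plates under a light and dark cycle with no special treatment. ppi2 is a loss-of-function mutant of TOC159, a receptor for the import of precursor proteins into chloroplasts, and its plants are pale. Genotype and age changed together, so they cannot be told apart, and the labels do not give the strain of either group or say whether plants were pooled. In whole-plant RNA, fewer cells of a type and less RNA per cell cannot be told apart either.

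In leaves, genes for antenna and photosystem proteins are kept high by light and by functional plastids, and plastid signals lower them when chloroplast development fails. Genes for stress perception and protection form a separate programme: receptors detect pathogens or damage, calcium sensors, kinases and AP2/ERF transcription factors relay the signal, and peroxidases, glycosyltransferases, efflux carriers and secreted proteins act on the threat.

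All signals below are MAS5 signal intensities on a linear scale. The first 2 values of each gene are those of ppi2 replicates 1 and 2, and the 2 values after "against" are those of wild type replicates 1 and 2. The arrays of ppi2 replicate 1 and wild type replicate 2, on which the rule asks for high signal, are called the bright arrays, and the other arrays the dim arrays. Separation means the lower bright signal divided by the higher dim signal. Since the rule used all 4 arrays, separations are descriptions and were not tested.

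The 4 arrays were alike in overall level, with median signals of 193 to 213. The rule splits each labelled group, so this set could not show arrays that fall into their labelled groups. Over all tested probe sets, same-numbered arrays deviated in opposite directions from their group means (correlation -0.818). Whether labels or values of a pair of arrays were exchanged could not be checked from the files, since no probe set is assigned to TOC159 in the annotation used here. Every ppi2 or wild-type value below is therefore that of the array labelled so, and the comparison of the labelled groups holds only as far as the labels do. The median of the 52 genes was 1513 on ppi2 replicate 1 and 1465 on wild type replicate 2, and 228 on ppi2 replicate 2 and 186 on wild type replicate 1. The 116 members together held 1.84% of the summed signal on each bright array, and 0.256% and 0.232% on the dim arrays of ppi2 and wild type. The set is named after antenna genes on these same arrays, so their signals describe the name and do not test it. Those given here are the antenna proteins looked up for which the annotation used here gave a probe set of their own. LHCB4.2, of the photosystem II antenna, read 841 and 29459 against 30097 and 714, the mirror image of the 52 genes. LHCB4.1 went the same way as LHCB4.2, with 10806 and 35278 against 45545 and 10343. LHCB4.3 did not, with 167 and 202 against 315 and 198, so the opposition holds for 2 of these 3 antenna genes. Antenna genes without such a probe set were not examined. The same conditions applied to ppi2 against wild type in either direction, or to one replicate number against the other, were met by 0 probe sets. Turned round, with the dim arrays high, they were met by 181 (0.796%).

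**Figure D1:**
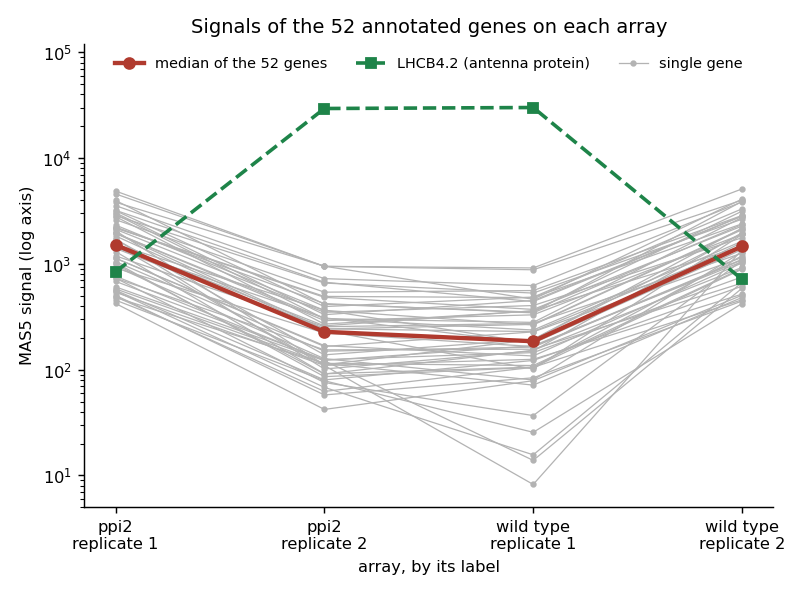
MAS5 signal (log axis) of the 52 annotated genes on the 4 arrays, 1 grey line a gene, with their median in red and the antenna gene LHCB4.2 as a dashed green line. The median was 1513 and 1465 on ppi2 replicate 1 and wild type replicate 2 and 228 and 186 on the other arrays, while LHCB4.2 was low where the set was high.

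Separation among the 52 genes ran from 4.02 to 12.5, with a median of 5.31. It reached 5 for 29 genes and 8 for 10. The bright signals ranged from 422 to 5117, and the dim signals from 8.22 to 951. At the limit of 4-fold, AT4G36010 (separation 4.02) and AT2G27080 (4.03) were just inside, and AT4G08850 (3.87) and AT4G27350 (3.88) just outside. At the limit of 400 on the bright arrays, AT5G15420 (422 and 42.1 against 78.7 and 505) and AT5G25450 (454 and 78.6 against 25.6 and 422) were just inside. Just outside were AT2G21510 (389 and 7.22 against 8.31 and 439.6) and AT4G19240 (395 and 8.28 against 17.5 and 447), which separated by 46.8 and 22.6. The signal limit thus left out genes with a larger separation than any annotated member. Those separations rest on dim signals of 7.22 to 17.5, where the lowest 10% of all signals reached up to 7.99.

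The tables used for naming give a symbol for 2 of the 52 genes, a descriptive synonym for 1 more and only a locus identifier for the rest. The protein families stated below are background from the known annotation of the Arabidopsis genome, and a gene is given none where that was not certain. On this basis 36 genes fell into 6 groups by function and 16 were left without one. The groups were made from what the proteins are, not from their values, but with the list of members known.

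Immune receptors were represented by 4 genes. Receptors of the TIR-NBS-LRR class sense pathogen effectors inside the cell, and leucine-rich repeat proteins at the cell surface sense molecules from outside. AT1G63750, of the TIR-NBS-LRR class, had the largest separation of the group (10.7), with signals of 2059 and 111 against 193 and 2181. AT2G34930, a leucine-rich repeat protein of a disease resistance family, read 1952 and 305 against 237 and 1639. Both were at least 1639 on the bright arrays and at most 305 on the dim ones. AT2G20142, which has a TIR domain, read 683 and 124 against 145 and 753. AT5G58120, also of the TIR-NBS-LRR class, read 765 and 122 against 168 and 1049. In the 3 genes with a TIR domain wild type replicate 1 was the higher of the dim arrays, and in AT2G34930 ppi2 replicate 2 was.

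Transcription and signalling also held 4 genes, and their median separation, 7.61, was the highest of the 6 groups. AT5G52020, a transcription factor of the AP2/ERF family, read 1709.8 and 138 against 194 and 1922 and separated by 8.83. The calmodulin-like protein AT3G01830, which binds calcium, read 2801 and 269.7 against 359 and 3149. In both genes each array of the bright side was at least 7.80 times each array of the dim side. A further AP2/ERF factor, AT1G22810, read 943 and 127 against 79.9 and 1298. AT3G46930, a Raf-like protein kinase, read 1051 and 149.6 against 163 and 1091. The signal of wild type replicate 2 was above that of ppi2 replicate 1 in all 4 of these genes, by 1.04 to 1.38 times. Over all 52 genes this held for 28. The difference rests on few genes, 1 array an arm and a group defined here, and was not tested.

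Transporters made up 7 genes, with separations from 4.22 to 11.3. AT1G26730, whose EXS domain places it with phosphate exporters of the PHO family, had the largest separation, 11.3, and read 1307 and 91.4 against 106 and 1192. AT1G11960, of the OSCA family of calcium channels opened by osmotic stress, read 2944 and 303 against 280.0 and 2747. AT5G52050, listed as a detoxification efflux carrier, which exports small molecules from the cell, read 1951 and 291 against 329.9 and 1908. In these 3 genes the dim arrays were within 1.16-fold of each other. AT1G61890, of the same family of efflux carriers, read 4884 and 948 against 916 and 5117. The cation/calcium exchanger AT5G17850 read 2183 and 483 against 371 and 2279.7. The sugar transporter AT5G18840 read 607 and 121 against 13.9 and 589, so its dim arrays were 8.75-fold apart, with the lower signal on wild type replicate 1.

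Redox and detoxification genes numbered 6. CCS, the chaperone that delivers copper to superoxide dismutase, had the largest separation, 6.31, and read 3039 and 331 against 450.5 and 2844. UGT87A2, which transfers glucose to small molecules, read 2329 and 364 against 265 and 2105. AT5G39580, a secreted peroxidase, read 992 and 91 against 152 and 926. The separations of these 3 genes lay close together, between 5.79 and 6.31. AT2G21640, a mitochondrial protein known as a marker of oxidative stress, read 581 and 115 against 109 and 906, and its bright arrays were 1.56-fold apart, the widest gap among the 52 genes. AT4G39830, of the ascorbate oxidase type, read 563 and 80.1 against 122 and 616. AT5G25450, a subunit of complex III of the respiratory chain, lay near the signal limit of the rule, and its separation of 5.37 rests on dim signals of 78.6 and 25.6.

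Secreted and membrane proteins tied to stress numbered 7, among them 3 short cysteine-rich transmembrane proteins. Of those 3, AT1G05340 read 2192 and 493 against 481 and 2394. AT2G32190 read 1133 and 169 against 135 and 1022, and AT1G56060 read 482 and 115 against 71.5 and 481. AT2G27080, a LEA-type glycoprotein related to defence proteins of the plasma membrane, read 3831 and 951 against 463 and 4101. AT5G48540, secreted and related to cysteine-rich receptor kinases, read 1426 and 309 against 178 and 1367. AT4G36010, a thaumatin-like protein of the kind found among pathogenesis-related proteins, read 2865 and 659 against 529.9 and 2649, and AT1G14780, with a perforin-like domain, 916 and 222 against 165 and 1104. The median separation of the group, 4.202, was the lowest of the 6. In all 7 genes the signal of ppi2 replicate 2 was above that of wild type replicate 1, which was 0.487 to 0.975 times as high, while over the 52 genes this held for 27. That difference rests on 1 array an arm and on a group defined here, and was not tested.

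The last group, of chaperones, enzymes and other proteins, held 8 genes with a median separation of 5.31. AT5G13200, whose GRAM domain binds membrane lipids, had the largest separation, 9.37, and read 3979 and 416 against 349.7 and 3895. AT3G29410, a terpene synthase, read 1838 and 234 against 101 and 1897. AT4G24160, a hydrolase acting on lipids, read 3556 and 726 against 624 and 3855. In these 3 genes the bright arrays were within 1.08-fold of each other. The DnaJ-type co-chaperone AT2G20560, a partner of Hsp70 chaperones, read 505 and 57.7 against 83.8 and 446. AT1G78070, with WD repeats, read 1949 and 243 against 268 and 2141, and AT4G23680, of the major latex protein family, 2234 and 422 against 344 and 2359.

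Among the 16 genes with no role given, AT2G15560 had the largest separation of all 52 (12.5), with 1509 and 109.5 against 8.22 and 1366. AT1G50290 followed, with 1719 and 102 against 150.5 and 1969.6. The next were AT2G35820 (9.7), AT2G17660 (8.49), AT3G28320 (8.11) and AT1G78280 (6.56). On wild type replicate 1, AT2G15560 read 8.22 and AT3G28320 read 15.7, where the lowest 10% of all signals reached up to 7.99.

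**Figure D2:**
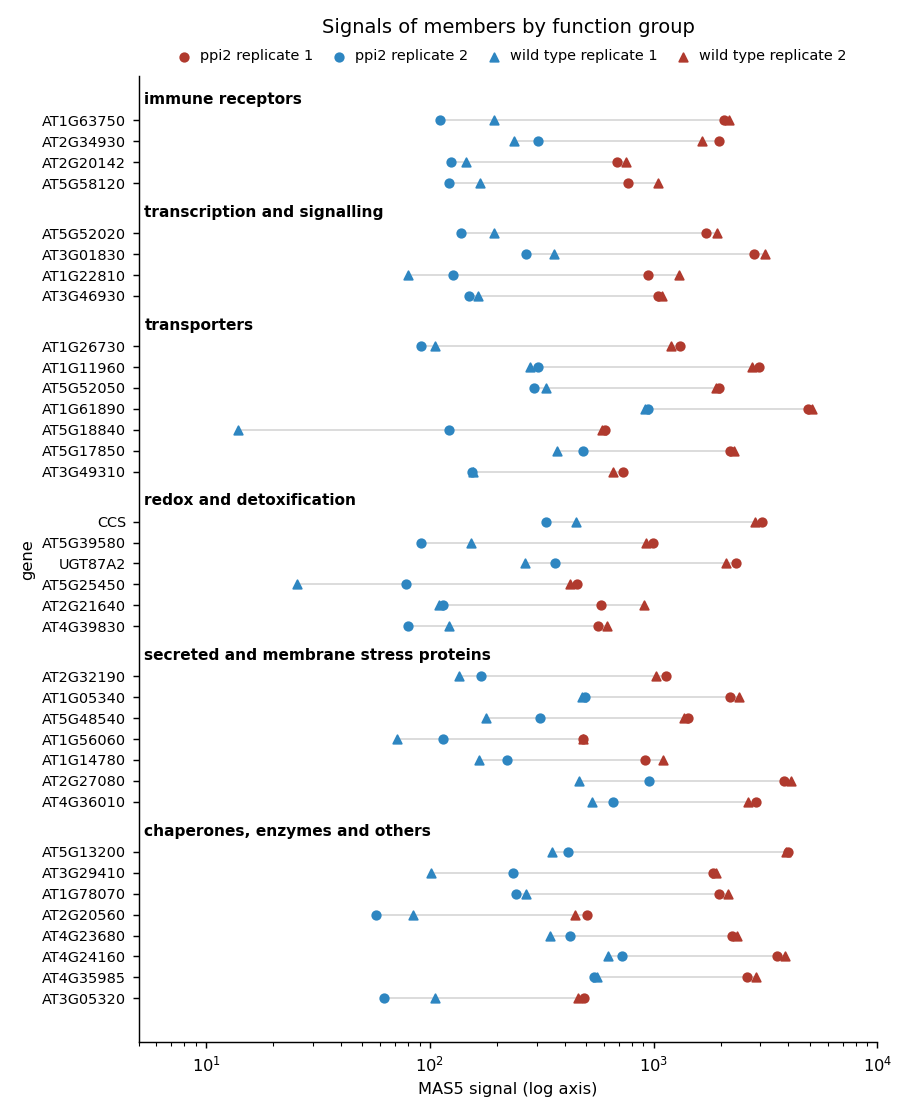
MAS5 signal (log axis) of the 36 genes with a known protein family, 1 row a gene, by function group; circles are ppi2 and triangles wild-type arrays, red the bright and blue the dim arrays. In each row both red points lie at least 4-fold to the right of both blue points, and the blue points are furthest apart for AT5G18840, at 121 and 13.9.

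The arrays of like signal were compared with each other to see how closely they agreed for this set. The bright arrays were within 1.5-fold of each other in 51 of the 52 genes (98.1%), all but AT2G21640, and the dim arrays in 35 (67.3%). Over all 13604 tested probe sets these shares were 94.4% and 82.9%. The 7438 other tested probe sets with at least 400 on both bright arrays had shares of 98.8% and 89.9%. The median over genes of the mean signal of both dim arrays was 195 for the 52 genes and 878 for those probe sets. The rule itself keeps the dim signals of the members low, and shares at matched signal were not compared. Wild type replicate 2 was above ppi2 replicate 1 in 28 of the 52 genes, and wild type replicate 1 above ppi2 replicate 2 in 25. The median log2 ratio was 0.05 for the bright arrays and -0.04 for the dim ones.

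**Figure D3:**
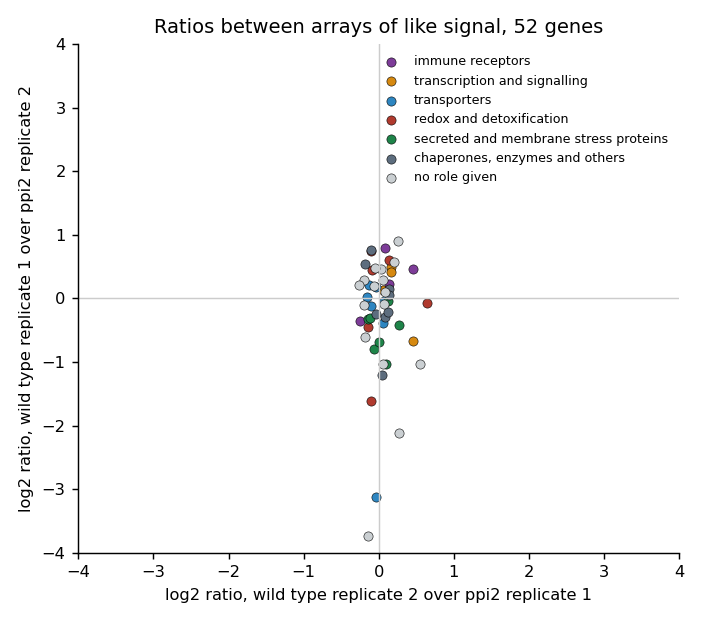
Log2 ratio of wild type replicate 2 over ppi2 replicate 1 (x axis) and of wild type replicate 1 over ppi2 replicate 2 (y axis) for the 52 genes, coloured by function group. Points spread little along the x axis (51 of 52 genes within 1.5-fold) and more along the y axis (35 of 52), downwards for the 7 green points of the secreted and membrane group.

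The comparison of the labelled groups, ppi2 against wild type, asks which genes differ in plants with impaired chloroplast import. It was fitted over all tested probe sets with limma on log2(signal + 7.99). All 116 members passed the filter on low mean signal, which their bright arrays made certain. In this fit 0 of 13604 probe sets (0%) passed the threshold (limma, Benjamini-Hochberg adjusted p below 0.05), and 8 had an unadjusted p below 0.05. Of the 116 members 0 passed, 0 had an unadjusted p below 0.05, and the smallest adjusted p was 0.99997 (limma). The labelled difference was above 0 in 64 members and below 0 in 52, with a median of 0.05, and over all tested probe sets the median was -0.01. Among the 52 annotated genes 26 lay on each side, with a median of -0.00084 and a range of -0.52 to 1.5005. The contrast that chose the members is part of the residual spread in this fit: the median standard error was 1.29 for the members and 0.376 over all tested probe sets. The members could therefore hardly pass, and these values do not show that ppi2 and wild type had equal levels. Arrays of a group are labelled as biological replicates, with no word on separate cultures, and the p-values cover no spread beyond that of these 4 arrays.

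The 3 largest labelled differences in each direction among the annotated genes were as follows. AT2G15560 had a log2 difference of 1.5005 (limma standard error 2.46, 2 arrays a group), with dim arrays 13.3-fold apart. AT5G18840 followed with 1.30 (standard error 1.78), and AT5G25450 with 0.74 (standard error 1.51). All 3 were dimmest on wild type replicate 1. In the other direction the largest were AT5G15420 at -0.52 (standard error 1.38), AT5G58120 at -0.44 (1.23) and AT1G63750 at -0.42 (1.79). Each of these differences was smaller than its standard error. The rule makes the sign of the members' labelled difference likely when 1 array is left out, so these values describe the choice of members. It does not fix the sign for each gene: without ppi2 replicate 1, AT5G18840 stayed above 0, at 0.18. The median was -1.24 after removal of ppi2 replicate 1 and -1.30 after removal of wild type replicate 1. With ppi2 replicate 2 removed it was 1.38, and with wild type replicate 2 removed 1.36.

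**Figure D4:**
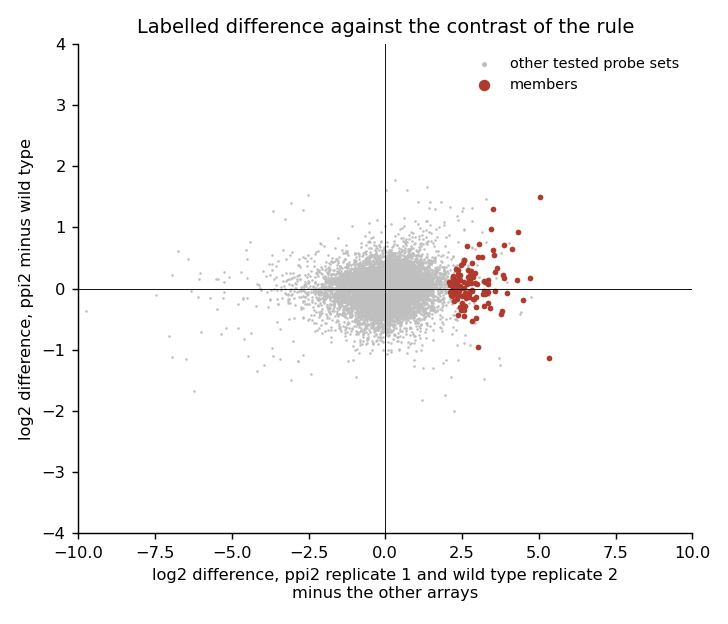
Log2 difference of ppi2 minus wild type (y axis) against the log2 difference of ppi2 replicate 1 and wild type replicate 2 minus the other arrays (x axis), for 13604 tested probe sets, members in red. By construction the members lie to the right, and their labelled differences lie on both sides of 0, between -1.13 and 1.5005.

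Other genes of stress, starvation, growth and photosynthesis pathways were taken from lists of gene symbols. Of 17 lists with 304 entries, 55 entries could be tested, and 4 lists (salicylate defence, jasmonate, nitrogen and cytosolic ribosomal proteins) had no tested member. In the labelled comparison 0 of the 55 passed in either direction (limma adjusted p below 0.05, 0% over all probe sets). Separation of at least 2-fold toward the bright arrays was seen in 5.2% of all tested probe sets, and toward the dim arrays in 6.45%. In these lists it was found for 6 entries toward the bright and 11 toward the dim arrays. Of the 11, 5 came from the list of antenna and photosystem genes, which was included for its opposite direction. Among the 6 was ATPMEPCRB, left out of the members by name. These counts therefore reflect how the lists were chosen. Of the 55 tested entries 0 were members, and ATPMEPCRB, left out by name, was alone in meeting the conditions of the rule. The lists hold symbols, and only 2 of the 52 annotated members have a symbol. The 62 members that the annotation does not list could not be matched at all. Members may therefore belong to these lists without having been matched, and the 0 does not show that lists and set share no gene. AT2G21640, a member described above as a marker of oxidative stress, was among the genes that no list symbol matched.

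Nearest to the members among the tested entries of the stress and starvation lists was UGT73B5, a glucosyltransferase, with 416 and 108 against 136 and 422 (separation 3.07). SAG101, a lipase-like protein of senescence and immunity, read 512 and 163 against 176 and 632. ATG8B, of autophagy, read 645 and 241 against 199.97 and 692, but of 9 tested autophagy genes 1 separated toward the bright and 1 toward the dim arrays. Of 5 tested chaperones 1 separated toward the bright arrays, AT5G48570, a co-chaperone, with 489 and 183 against 145 and 458. Of the 6 tested starvation genes 0 reached 2-fold in either direction. AKINBETA1, a subunit of SnRK1 kinase complexes, came nearest, toward the dim arrays, with 1129.6 and 2243 against 2558 and 1175. Toward the bright arrays the nearest was PPDK, an enzyme of carbon metabolism, with 1105 and 632 against 545 and 1213. Of the 4 tested cold and dehydration genes 0 separated by 2-fold toward the bright arrays and 2 toward the dim ones. COR15A, a cold-induced plastid protein, read 95.3 and 3609 against 3243 and 70.9, and COR15B, closely related to it, 98.3 and 4158 against 4162 and 77. The dehydrin LTI30 read 3861 and 2076 against 1640.1 and 3979.8, a separation of 1.86. Of the 6 tested antenna and photosynthesis genes 5 separated toward the dim arrays, and LHCB4.3 did not.

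Tissue markers were few, since 4 of the 8 lists had no tested member. The root marker EXPA18, an expansin of root hairs, read 117 and 129.9 against 178 and 95.4, and the guard cell marker FMA, a transcription factor of stomatal development, 310.4 and 249 against 174 and 191. The floral regulator AGL24 read 111 and 128 against 115 and 147. Of the mesophyll markers RCA, the activase of Rubisco, read 12918 and 20244 against 16455 and 13708, a separation toward the dim arrays of 1.2003, while LHCB4.2 and PORB reached 35.0 and 6.83. The part of cell composition in the members' signals was not tested.

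The 52 genes were also compared with all nuclear probe sets assigned to 1 gene, in features the rule did not use. Those probe sets were not filtered by signal, so the comparison is not at matched signal. All 52 were protein-coding, as were the genes of 12369 of the 13362 nuclear probe sets. Their median gene length was 2188 bases, against 2122.5. A symbol was given for 3.85% of them and for 11.1% of all. Chromosomes 1 and 5 held 14 genes each, chromosome 2 held 12, and chromosomes 3 and 4 held 6 each. Chromosome 1 held 26.9% of these 52 members and 25.8% of all nuclear probe sets with 1 gene. Chromosome 2 held 23.1% and 16.5%, and chromosome 3 held 11.5% and 20.5%. The shares were 11.5% and 14.7% on chromosome 4, and 26.9% and 22.5% on chromosome 5. None of these differences was tested. AT5G52020 and AT5G52050 lay near each other, with 3 protein-coding genes between them, and AT4G35985 and AT4G36010 with 2 between them. A probe set with several genes lists AT2G32190 among them, so 2 members may share this target.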

How the data were processed

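The authors deposited 1 linear signal intensity per probe set for each of 4 arrays. MAS5 made them, per the submitters' processing notes. Its version is not stated in the labels, nor is the level to which arrays were scaled. Of 22810 probe sets, 64 controls were left out. The platform annotation gave 1 gene for 13513 and several for 503; 13436 of the former matched RefSeq genes (TAIR10.1), used for names, chromosomes and order only. The rule for the members was applied to the linear signals of all probe sets.

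ppi2 and wild type were compared in limma 3.58.1 under R 4.3.3, on log2(signal + 7.99), the 10th percentile of all signals, which understates differences of dim probe sets. The brightest probe set stood for a gene. A filter at a mean signal of 124 (40th percentile) kept 13604. The fit used lmFit and eBayes, two-sided, with the prior variance following mean signal (2 residual and 2.59 prior degrees of freedom). Benjamini-Hochberg adjustment was over all of them. A run on simulated data took its noise from ppi2 replicate 1 and wild type replicate 2 only. It lacks the larger spread within the labelled groups, so it does not test the fit at that spread. No second probe set of a member's gene was removed. Replicate numbers, which the groups share, did not pair the arrays: same-numbered arrays deviated in opposite directions from their group means (correlation -0.818).

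Named genes were up to 6 per function group by separation, those nearest the limits of the rule, the 3 largest labelled differences each way, and listed genes. AT4G35985 is named besides, for its position only. List symbols that name several genes were left out. Members and lists were chosen with earlier results of these data known. Promoter motifs, fixed as a description, were not run, since no sequences were used here. Depth has no count on arrays, and their number limits the precision. Alternatives were other normalizations, pseudocounts, filters, variance models, blocks, left-out arrays and limits of the rule. Plots used matplotlib 3.10.9 (Python 3.11.15).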

Additional observations from a re-analysis of the deposited data

How the results depend on the processing

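Between the labelled groups 0 probe sets passed under all alternatives run (quantile normalization, median centring, 2 other pseudocounts, no filter and a stricter one, no variance trend, the replicate block and leaving out each array), members included. The replicate number as a block left the median labelled difference of the members at 0.05 and changed no call. With crossed numbers as a block, chosen after seeing the data, 0 probe sets passed. Leaving out 1 array gave medians from -1.30 to 1.38, with a sign that the rule for the members makes likely. These fits assume that the single array left varies as the other group does. Of 475 values of 40 named genes under other settings, 0 were past the threshold, and the sign differed in 85, 79 of them among the 160 values with 1 array left out. The rule gave 211 members with a 3-fold limit and 49 with a 6-fold limit, since the limit itself was moved, and 139 and 87 with signal limits of 200 and 800. After quantile normalization 114 probe sets met it, 111 of them among the 116, and the median separation was 5.56 against 5.37 (5.64 after median centring). No detection calls were used, so signals near the floor limit what the dim arrays show.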

Other observations

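The 62 members that the annotation does not list had a median of 1898 on ppi2 replicate 1 and 1947 on wild type replicate 2, and of 244 and 223 on ppi2 replicate 2 and wild type replicate 1. Their separation ran from 4.01 to 29.2, with a median of 5.75, and 15 of them reached 8, against 10 of the 52 named genes. In 61 of the 62 the bright arrays were within 1.5-fold of each other, and in 48 the dim arrays were. These are descriptions of values that chose the members.

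Gene families with a member in the set were examined after the values were seen. Of 47 UDP-glucosyl transferases with a symbol, 24 could be tested, and 2 separated by at least 2-fold toward the bright arrays, UGT87A2 (2329 and 364 against 265 and 2105) and UGT73B5 (416 and 108 against 136 and 422). Another 2 separated toward the dim arrays: UGT88A1 read 1219 and 3856 against 4473.5 and 1111, and UGT85A5 read 54.4 and 359 against 377 and 104.5. Of 8 calmodulin-like genes named CML, 5 could be tested, of which 2 separated toward the bright arrays and 0 toward the dim ones. CML42 read 731 and 253 against 121 and 718, and CML37 693 and 339.9 against 198 and 753. CML38 read 3683 and 2612 against 1588 and 4232, a separation of 1.41. AT1G76640, listed as a further calmodulin-like gene, read 226 and 29.2 against 29.6 and 155 and was under the filter on mean signal. CML43, also under this filter, went the other way, with 48.1 and 128 against 166 and 59.95, a separation of more than 2-fold toward the dim arrays. CML41, under the filter as well, did not reach 2-fold in either direction. Over all tested probe sets 5.2% separated by 2-fold toward the bright and 6.45% toward the dim arrays.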
